A study of Mus musculus with 24 samples.

Results

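The 8 genes described here write, copy and remove DNA methylation: the DNA methyltransferases Dnmt1, Dnmt3a and Dnmt3b, the UHRF proteins Uhrf1 and Uhrf2, and the TET enzymes Tet1, Tet2 and Tet3. They were chosen by name from the 23420 genes in the files, and all 8 passed the filter that left 11885 genes to test. RNA of sorted B cells from the spleen of Balb/c mice was sequenced in 24 libraries, 3 in each of 8 groups. The groups were naive cells (Naive), cells activated in culture for 4 h, 12 h and 24 h, cells activated in the animal (In_vivo_activated_B_cells), and cells of the germinal center (GC) at an early, a peak and a late stage (Early_GC, Peak_GC, Late_GC). All groups share the strain, the organ and the bead purification and sort. The labels do not give the stimulus in culture, any immunisation, the age or sex of the mice, or which libraries share an animal or a culture, so the p-values rest on the scatter among the libraries sequenced, which may be technical.

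In mammals, a methyl group on cytosine in CG pairs is set by DNMT3A and DNMT3B, the de novo enzymes, and copied onto the new strand after each round of DNA replication by DNMT1. UHRF1 binds the half-methylated sites left by replication and brings DNMT1 to them; UHRF2 is its close relative. The TET enzymes oxidise 5-methylcytosine to 5-hydroxymethylcytosine and further forms, which are lost by dilution during replication or cut out by base excision repair. B cells that enter a germinal center divide quickly and mutate their antibody genes, and DNMT1, TET2 and TET3 are each known for roles in B cells.

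Of the 8 genes, Dnmt1 and Uhrf1 rose at least 2-fold from naive cells to 24 h of culture, as did most DNA replication genes (below). Dnmt1 parted from these at 4 h, where it fell by 0.65 and their median was 0.125. From in vivo activated to peak GC cells it rose by 0.76, against their median of 0.11. Many replication genes are regulated by E2F factors. The E2F-type letters TTTNNCGC were looked for on both strands in the 250 bases before each of 13 RefSeq start sites of the 8 genes. Positions are in GRCm38.p6, the same coordinates as mm10, and all 8 genes matched by symbol. Regulation of the 8 genes by E2F was not tested. These letters were present at 3 starts, the third of Dnmt1 and both of Uhrf1, and in 4.28% of the windows of the same length before 32851 starts of all genes. The letters contain CG, and the 3 windows had 26, 10 and 30 CG pairs, against a median of 6 over all windows. No share was taken among windows of like CG content. In Dnmt1 there were 2 overlapping matches, at 9:20952823-20952852 on the minus strand, where the GENCODE annotation also has 2 exons. The windows in Uhrf1 were 17:56303270-56303299 and 17:56304117-56304146 on the plus strand, outside the annotated exons of the 8 genes. Exons of other genes were not looked at. The 30 bases around each are shown in the gene's direction with the matching letters in capitals, reading TTTNNCGC or its reverse complement.
Dnmt1, start 3: gtttccgcgcGCGCGAAAAAgccggggtct
Uhrf1, start 1: gccccacttgcTTTCTCGCttcccgccaca
Uhrf1, start 2: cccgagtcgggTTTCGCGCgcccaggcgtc
The letters TTTGAA were found at the first start of Dnmt1 and the start of Dnmt3b, against 16.0% of all windows, and CCAAT at starts of Dnmt1, Uhrf1 and Tet3, against 33.8%. A match is a description of letters and was not tested as a binding site. None of the starts of Dnmt3a, Dnmt3b, Tet1, Tet2, Tet3 or Uhrf2 had the letters TTTNNCGC in its window.

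Values are the deposited log2 values on the scale of CPM, read counts scaled to a common library size, and a gene is called changed at a limma adjusted p under 0.05. The GC libraries carried the markers of their label: 7 GC B-cell markers summed to 1478 to 2075 CPM in them. In the other 15 libraries these summed to 58.2 to 147 CPM. A list of 6 naive follicular B-cell markers summed to 3733 to 4533 CPM in naive cells and 369 to 2319 CPM elsewhere. No list of activation markers was used, so the culture and in vivo activated labels were not checked this way. Markers of other cells moved with the groups as well. Of 7 macrophage and monocyte markers, 6 were in the files; they summed to 486 to 2129 CPM in late GC, 114 to 309 CPM in early and peak GC, and 7.96 to 44.9 CPM elsewhere, with Csf1r and Cd14 among those under 1 CPM at all 3 culture times. Of 6 erythroid markers, 5 were in the files and summed to 82.7 to 531 CPM in GC cells against 0.565 to 47.2 CPM elsewhere. Of 6 neutrophil markers, 5 were in the files and summed to 71.2 to 1001 CPM in late GC against 2.17 to 117 CPM in the other groups. The part of these cells in the results was not tested. The Y-linked genes Ddx3y, Eif2s3y and Kdm5d had log2 values of 3.97 to 5.77 in naive and cultured cells and of -6.22 to -6.14 in all in vivo activated and GC libraries. Xist, which is transcribed from the inactive X chromosome, had 6.29 to 7.49 in naive and cultured cells and 7.91 to 8.55 in the other libraries, so both kinds of sex-linked RNA were present in naive and cultured cells. The sex makeup of the samples and the cell state therefore cannot be told apart where in vivo activated or GC cells are compared with naive or cultured cells. By these genes, in vivo activated and GC libraries were alike.

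Dnmt1 (9:20907209-20959888, minus strand, mm10), the maintenance methyltransferase, was lowest at 4 h of culture and highest in GC cells. In naive cells its log2 values were 6.58, 6.61 and 6.70, and at 4 h they were 5.87, 5.99 and 6.08, all below the naive libraries. The fall at 4 h was 1.57-fold (log2 change of -0.65 ± 0.07 SE, limma adjusted p = 7.42e-09). Over the same step, 1 of 12 mitosis genes was higher and 11 were lower (38.9% and 39.1% of all genes tested). Their median was -1.48, against -0.01 for all genes tested. Of 22 DNA replication genes, 10 were higher and 8 lower, with a median of 0.125. The link of these changes to the Dnmt1 fall was not tested. Dnmt1 was back above naive at 12 h, with 6.81, 6.88 and 6.90, and reached 8.98, 9.08 and 9.01 at 24 h. The rise from naive to 24 h was 5.25-fold (2.39 ± 0.07, limma adjusted p = 1.46e-19), and most of it came between 12 h and 24 h (2.16 ± 0.07). In vivo activated cells had 8.82, 8.70 and 8.76, which was 0.26 ± 0.07 below the 24 h culture (limma adjusted p = 0.00154). All 9 GC libraries were higher still, at 9.20 to 9.57. Peak GC cells had 9.56, 9.51 and 9.47, 7.39-fold above naive cells (2.89 ± 0.07, limma adjusted p = 6.36e-21) and 1.69-fold above in vivo activated cells (0.76 ± 0.07, limma adjusted p = 1.01e-09). The early GC libraries overlapped those of the peak and of the late stage, while the peak and late libraries did not overlap.

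Uhrf1 (17:56303321-56323486, plus strand), which guides DNMT1 to replicated DNA, had the widest span of group means among the 8 genes, 39.4-fold from naive cells to 24 h of culture. Naive cells had log2 values of 4.01, 4.15 and 4.05, and 4 h cultures had 4.11, 4.07 and 4.11. The naive and 4 h libraries overlapped, with a difference of 0.03 ± 0.05 (limma adjusted p = 0.65), while Dnmt1 fell over the same step. Uhrf1 then rose to 6.18, 6.12 and 6.22 at 12 h and to 9.37, 9.37 and 9.37 at 24 h, steps of 2.08 ± 0.05 and 3.20 ± 0.05 (limma adjusted p = 8.02e-19 and 3.41e-23). Its level in in vivo activated cells was 8.76, 8.65 and 8.68, below every 24 h library (-0.67 ± 0.05, limma adjusted p = 6.1e-11). In peak GC cells it was 8.51, 8.53 and 8.54, slightly below in vivo activated cells (-0.18 ± 0.05, limma adjusted p = 0.00396), where Dnmt1 was higher.

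Uhrf2 (19:30030513-30093722, plus strand), the relative of Uhrf1, moved the other way in culture and over a range of only 2.43-fold. Naive cells had 5.94, 5.90 and 5.92. The value fell by 0.16 ± 0.07 at 4 h (limma adjusted p = 0.0313), a call lost without naive replicate 1, naive replicate 3 or 4 h replicate 2 (limma adjusted p = 0.0742, 0.0588 and 0.134). It fell by 0.48 ± 0.07 at 24 h (limma adjusted p = 5.18e-07), when the libraries had 5.50, 5.40 and 5.43. Cells activated in vivo, with 6.12, 6.33 and 6.12, were above naive cells (0.27 ± 0.07, limma adjusted p = 0.000744). Uhrf2 therefore differed in direction between the 24 h culture and in vivo activation, and the direct difference was 0.75 ± 0.07 (limma adjusted p = 8.49e-10). Peak GC cells had 6.78, 6.64 and 6.60, above every in vivo activated library (0.48 ± 0.07, limma adjusted p = 8.6e-07), and the 3 GC stages overlapped.

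**Figure D1:**
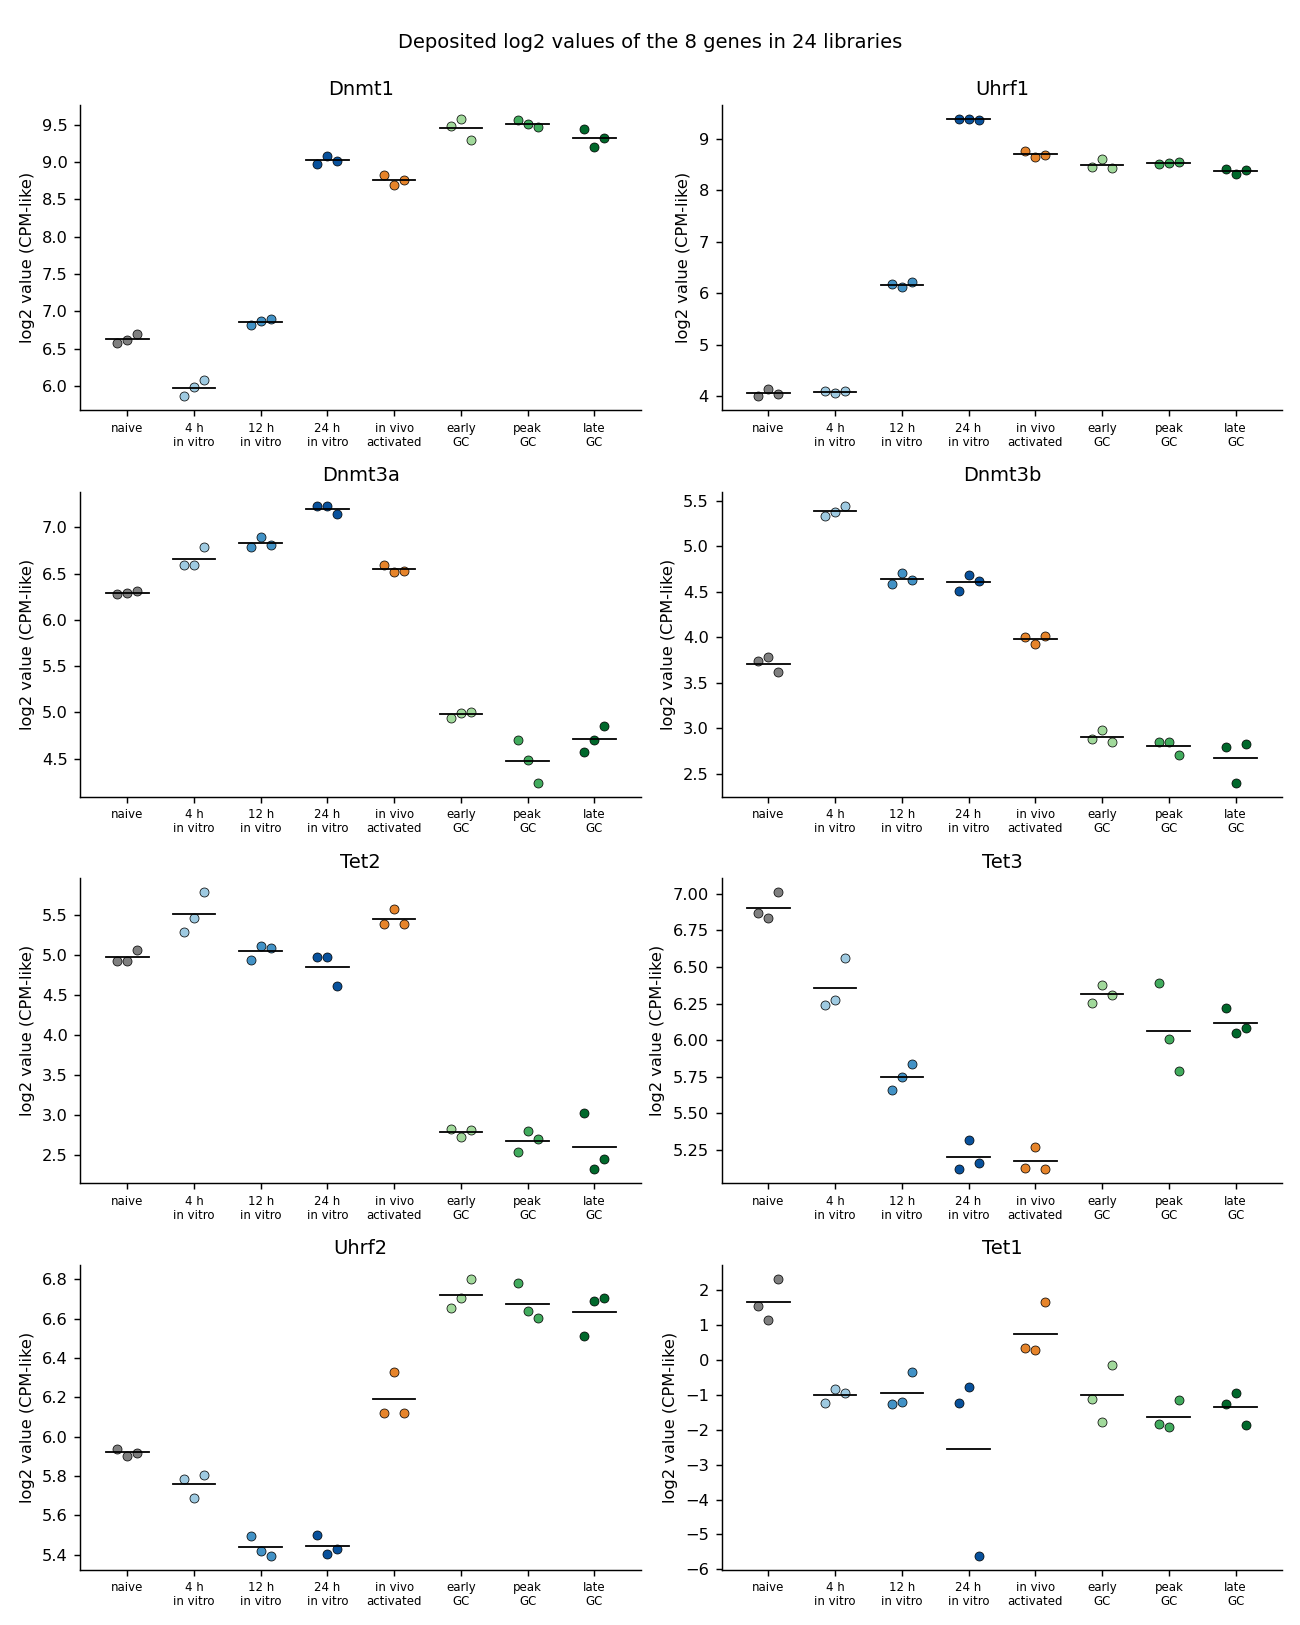
Deposited log2 values (vertical axes, CPM-like) of the 8 genes in every library of the 8 groups (horizontal axes); points are libraries and lines are group means of 3. Dnmt1 and Uhrf1 are highest at 24 h of culture and in the in vivo activated and GC groups, Dnmt3a, Dnmt3b and Tet2 are lowest in the 9 GC libraries, and 1 Tet1 library at 24 h lies at -5.61.

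Within a library, the difference between Dnmt1 and Uhrf1 shrank and then widened again. Dnmt1 exceeded Uhrf1 by 2.56 ± 0.09 log2 (SD, n = 3) in naive cells, 1.88 ± 0.11 at 4 h and 0.69 ± 0.06 at 12 h. At 24 h the order was reversed, at -0.35 ± 0.05, and in in vivo activated cells the values were close, at 0.06 ± 0.02. At the early, peak and late GC stages Dnmt1 was again ahead, by 0.96 ± 0.09, 0.99 ± 0.06 and 0.95 ± 0.07. No peak GC library overlapped a 24 h library, and no 24 h library overlapped a naive library. Both exact permutation tests gave p = 0.1, the smallest that 3 against 3 libraries allow. These are differences of values that are not scaled to gene length, so they show change between groups and not which RNA is more abundant.

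A list of 22 DNA replication genes gives a reference for both genes. The mean log2 value of the list was 4.62 ± 0.01 (SD, n = 3) in naive cells, 4.54 ± 0.02 at 4 h, 5.74 ± 0.02 at 12 h and 8.11 ± 0.03 at 24 h. It was 7.63 ± 0.06 in in vivo activated cells and 7.77 ± 0.07 in peak GC cells. Relative to this mean, Dnmt1 went from 2.01 ± 0.05 in naive cells to 1.445 ± 0.125 at 4 h. It stood at 0.92 ± 0.06 at 24 h and 1.13 ± 0.01 in in vivo activated cells. From naive cells to these 2 groups Dnmt1 thus rose less than the list. At the early, peak and late GC stages Dnmt1 stood at 1.68 ± 0.05, 1.74 ± 0.12 and 1.65 ± 0.10. Uhrf1 went from -0.54 ± 0.07 in naive cells to 1.26 ± 0.03 at 24 h, so it rose more than the list, and to 1.07 ± 0.02 in in vivo activated and 0.75 ± 0.06 in peak GC cells. These values are descriptions, and no test was run on them.

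**Figure D2:**
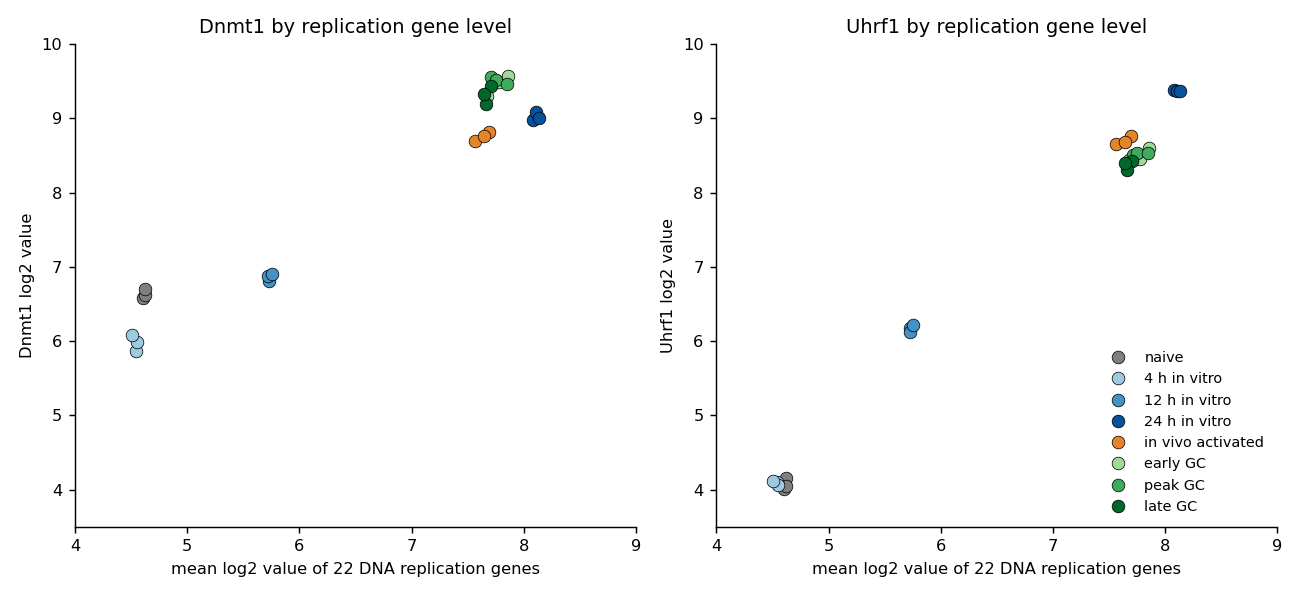
Log2 value of Dnmt1 (left) and Uhrf1 (right) against the mean log2 value of 22 DNA replication genes; each point is a library, coloured by group. Dnmt1 in GC libraries (9.20 to 9.57) lies above the 24 h libraries (8.98 to 9.08) although the replication mean is higher at 24 h (8.11 against 7.77 in peak GC); Uhrf1 is highest at 24 h.

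Dnmt3a (12:3806007-3914443, plus strand), a de novo methyltransferase, rose in culture and was low in GC cells. Naive cells had 6.28, 6.29 and 6.31, and the 24 h culture had 7.23, 7.23 and 7.15, a rise of 1.88-fold (0.91 ± 0.08, limma adjusted p = 5.6e-10). After in vivo activation Dnmt3a had 6.59, 6.52 and 6.53, 0.25 ± 0.08 above naive cells (limma adjusted p = 0.00874). Early GC cells had 4.94, 4.99 and 5.01, 2.96-fold below in vivo activated cells (-1.56 ± 0.08, limma adjusted p = 1.16e-13). Peak GC cells were lower again, with 4.70, 4.49 and 4.24, or -0.50 ± 0.08 relative to early GC (limma adjusted p = 0.000204). Dnmt3a was thus the only one of the 8 genes that changed between these 2 stages. Late GC cells had 4.57, 4.71 and 4.86, which overlapped the peak libraries.

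Dnmt3b (2:153649450-153687730, plus strand), the other de novo methyltransferase, had its highest level at 4 h of culture, before Dnmt1 or Uhrf1 had risen. Naive cells had 3.74, 3.78 and 3.61 and the 4 h culture 5.33, 5.37 and 5.44, a rise of 3.19-fold (1.68 ± 0.09, limma adjusted p = 8.61e-14). It fell again by 12 h (-0.75 ± 0.09, limma adjusted p = 3.64e-07) to 4.58, 4.71 and 4.63, and the 24 h libraries overlapped those at 12 h. The in vivo activated libraries, at 4.01, 3.92 and 4.01, were 0.27 ± 0.09 above naive cells (limma adjusted p = 0.0113), a call lost without naive replicate 3 (0.22, limma adjusted p = 0.0579). Early GC cells had 2.89, 2.98 and 2.85, 2.11-fold below in vivo activated cells (-1.07 ± 0.09, limma adjusted p = 6.63e-10), and the 9 GC libraries lay at 2.40 to 2.98. Within a library, the excess of Dnmt3a over Dnmt3b fell from 2.58 ± 0.10 (SD, n = 3) in naive cells to 1.27 ± 0.07 at 4 h, with no overlap (exact permutation test, p = 0.1). It was back at 2.54 to 2.72 in the 24 h libraries and was 1.68 ± 0.16 in peak GC cells. Antisense transcripts overlap Dnmt3a, Dnmt3b and Tet2 in the annotation (Dnmt3aos, Dnmt3bos and Gm42567) and were not analysed here. The library kit marks strand, and the strand setting of the counting is not given in the sources used here.

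Tet3 (6:83362373-83459084, minus strand) was the TET gene with the highest level per length in 7 of the 8 groups. Naive cells had 6.87, 6.83 and 7.01, and the level fell at each step in culture, by 0.55 ± 0.11 to 4 h, 0.61 ± 0.11 to 12 h and 0.55 ± 0.11 to 24 h (limma adjusted p = 8.54e-05, 4.07e-05 and 0.000167). The 24 h libraries had 5.12, 5.32 and 5.16 and overlapped the in vivo activated libraries, which had 5.13, 5.27 and 5.12. In vivo activated cells were 3.33-fold below naive cells (-1.73 ± 0.11, limma adjusted p = 1.05e-12). Early GC cells, with 6.26, 6.38 and 6.31, were 2.21-fold above in vivo activated cells (1.14 ± 0.11, limma adjusted p = 3.29e-09). Peak GC cells spread widely, with 6.39, 6.01 and 5.79, and stayed below naive cells (-0.84 ± 0.11, limma adjusted p = 2.42e-07). Tet3 overlaps B230319C09Rik on the other strand, which is also in the files.

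Tet2 (3:133463679-133545139, minus strand), often mutated in blood cancers, rose briefly in culture and was low in GC cells. Naive cells had 4.93, 4.93 and 5.06. The 4 h libraries had 5.28, 5.46 and 5.78 (0.54 ± 0.14, limma adjusted p = 0.00157), while the 12 h and 24 h libraries overlapped naive cells. In vivo activated cells had 5.39, 5.57 and 5.38, above every naive library (0.48 ± 0.14, limma adjusted p = 0.00416) and every 24 h library (0.59 ± 0.14, limma adjusted p = 0.00077). In early GC cells the values were 2.83, 2.73 and 2.82, a drop of 6.30-fold from in vivo activated cells (-2.66 ± 0.14, limma adjusted p = 1.59e-13). Peak GC cells had 2.54, 2.80 and 2.70 and late GC cells 3.03, 2.33 and 2.46, and the 3 stages overlapped. The highest late GC value was in replicate 1.

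Tet3 and Tet2 thus moved in opposite directions between in vivo activated and GC cells. Tet3 minus Tet2 within a library was 1.93 ± 0.02 (SD, n = 3) in naive cells. In culture it was 0.85 ± 0.09 at 4 h, 0.70 ± 0.05 at 12 h and 0.34 ± 0.20 at 24 h. It was -0.28 ± 0.02 in in vivo activated cells, where Tet2 had the larger value, and 3.52 ± 0.11, 3.38 ± 0.41 and 3.51 ± 0.28 at the early, peak and late GC stages. The step from in vivo activated to peak GC cells was 3.66 with no overlap (exact permutation test, p = 0.1). Dnmt1 minus Dnmt3a rose over the same step from 2.22 ± 0.03 to 5.04 ± 0.18, also with no overlap (exact permutation test, p = 0.1). After adjustment over the 5 such tests the value remained 0.1 for each. This is the smallest value possible here, so none of the tests could pass 0.05, and they only restate the absence of overlap.

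Tet1 (10:62804570-62908996, minus strand) was scarce: 18 of 24 libraries were under 1 CPM. The 6 others were the naive libraries, with log2 values of 1.53, 1.14 and 2.32, and the in vivo activated ones, with 0.34, 0.27 and 1.66. These 2 groups overlapped. Tet1 passed the filter on low values only through these 6 libraries, so its differences from them are a description here, and the counts of changed genes below include it with that limit. At 4 h it had -1.24, -0.83 and -0.94, all below the naive libraries. At 24 h it had -1.22, -0.78 and -5.61, the last close to the most frequent value of the files, -6.18, so no fold is given. Peak GC cells had -1.83, -1.92 and -1.14, also below every naive library. The difference of group means from naive was -2.67 at 4 h and -3.30 in peak GC cells, and on the log2(CPM + 1) scale, which understates changes of scarce genes, it was -1.49 and -1.66.

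**Figure D3:**
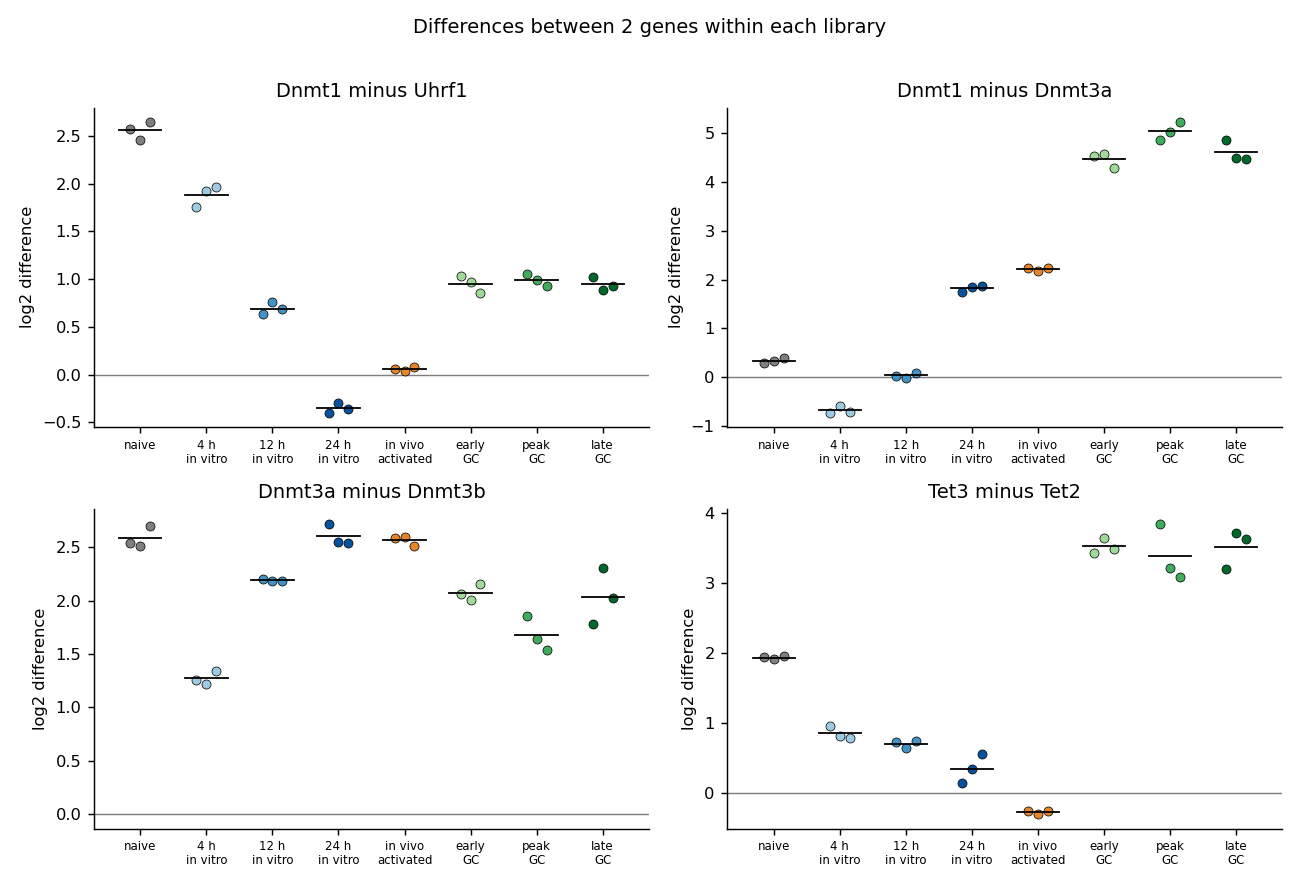
Differences between the log2 values of 2 genes within each library (vertical axes) in the 8 groups (horizontal axes); points are libraries and lines are group means of 3. Tet3 minus Tet2 is near -0.28 in in vivo activated cells and between 3.09 and 3.85 in the 9 GC libraries; Dnmt1 minus Uhrf1 is below 0 only in the 3 libraries of the 24 h culture.

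Scaled to gene length (CPM per kb of all annotated exon bases), the DNA methyltransferase RNA in naive cells was 64.8% ± 1.2 Dnmt1, 22.7% ± 0.3 Dnmt3a and 12.4% ± 1.0 Dnmt3b (SD, n = 3). At 4 h, Dnmt1 and Dnmt3b had nearly equal shares, 37.5% ± 0.9 and 35.9% ± 0.8. Dnmt1 made up 83.8% ± 0.3 at 24 h, 87.1% ± 0.2 in in vivo activated cells and 97.3% ± 0.2 in peak GC cells, where Dnmt3a and Dnmt3b had 1.32% ± 0.16 and 1.34% ± 0.04. The summed level of the 3 enzymes went from 20.7 ± 0.5 CPM per kb in naive cells to 84.1 ± 2.9 at 24 h and 101.9 ± 3.6 in peak GC cells. The TET sum was 9.26 ± 0.67 CPM per kb in naive cells, 3.95 ± 0.35 at 24 h, 4.87 ± 0.29 in in vivo activated and 4.47 ± 0.84 in peak GC cells.

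Of the TET RNA per length, Tet3 made up 77.6% ± 0.4 in naive cells, 55.9% ± 3.6 at 24 h and 44.3% ± 0.6 in in vivo activated cells, where Tet2 had 53.2% ± 1.1. At the early, peak and late GC stages Tet3 made up 91.4% ± 0.8, 90.7% ± 2.3 and 91.4% ± 1.4. Uhrf1 made up 35.9% ± 1.5 of the UHRF RNA in naive cells, 38.9% ± 0.6 at 4 h, 77.0% ± 0.9 at 12 h and 96.8% ± 0.1 at 24 h, and 92.0% ± 0.9 in in vivo activated cells. The shares depend on the length used: with the longest transcript of each gene, Uhrf1 had 21.5% in naive cells and 93.8% at 24 h, and Dnmt1 60.2% and 80.9%. At 4 h that length gave 34.9% Dnmt1, 33.8% Dnmt3a and 31.3% Dnmt3b, so the order of the de novo enzymes turned. In bulk RNA, a change in the share of cells of a type and a change in RNA per cell cannot be told apart.

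**Figure D4:**
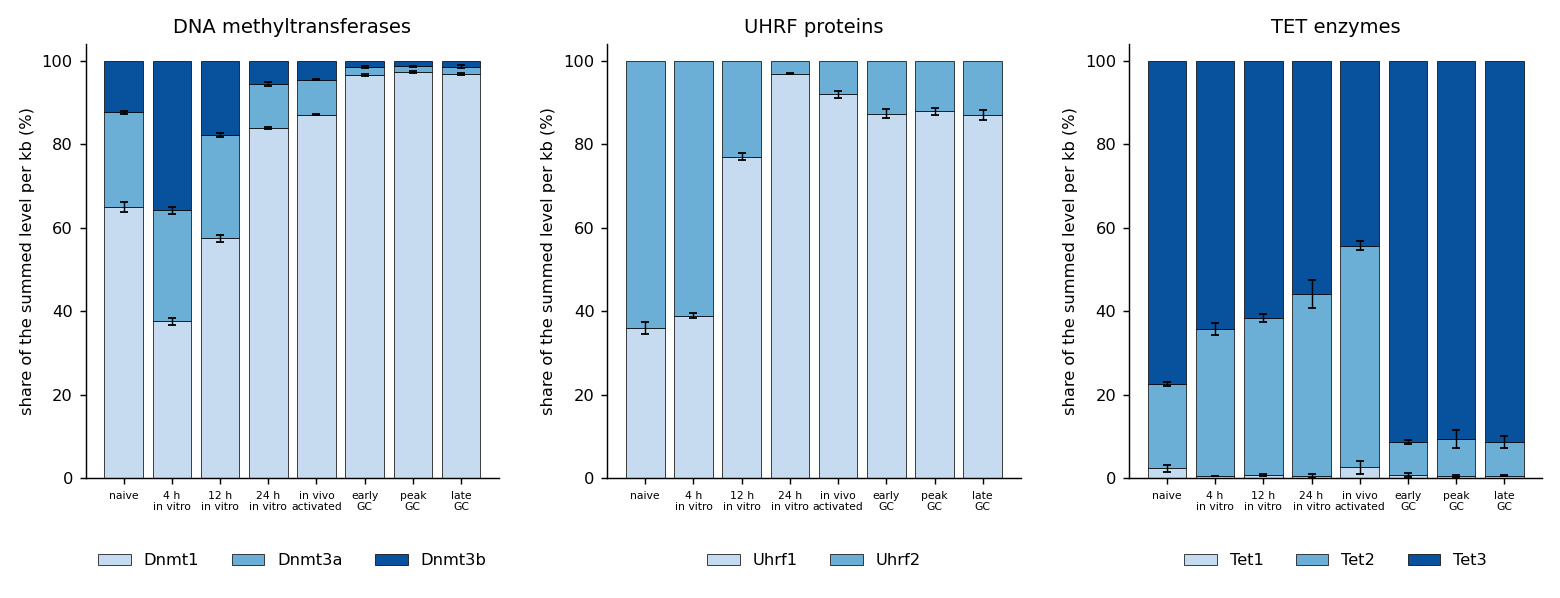
Share of each family's summed level (vertical axes, percent of CPM per kb) by group (horizontal axes); bars are means of 3 libraries, and the error bar at each boundary is the SD of the share of the gene below it. Dnmt1 reaches 97.3% of the methyltransferases in peak GC cells, Uhrf1 96.8% of the UHRF pair at 24 h, and Tet3 falls to 44.3% of the TET enzymes in in vivo activated cells.

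Compared with naive cells, the 4 h culture had higher Dnmt3b, Dnmt3a and Tet2 and lower Dnmt1, Tet1, Tet3 and Uhrf2. That is 7 of the 8 genes changed, against 78.0% of all 11885 genes tested; 3 were higher and 4 lower, against 38.9% and 39.1%, and 2 had changed at least 2-fold, against 33.7%. At 12 h, Uhrf1, Dnmt3b, Dnmt3a and Dnmt1 were higher and Tet1, Tet3 and Uhrf2 lower. Here too 7 genes had changed (background 80.9%), 4 higher (41.7%) and 3 lower (39.2%), with 3 at least 2-fold (38.9%). By 24 h the same counts held, with 7 changed (84.8%), 4 higher (42.2%) and 3 lower (42.5%), and 4 were at least 2-fold different (46.7%), namely Uhrf1, Dnmt1, Tet3 and Tet1. The counts of changed genes are close to the background in each case. Tet1 is in these counts at each time, although it passed the filter only through its naive and in vivo activated libraries.

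Within the culture, 6 genes changed from 4 h to 12 h (background 61.9%), with 2 higher (34.6%), Uhrf1 and Dnmt1, and 4 lower (27.2%), Dnmt3b, Tet3, Tet2 and Uhrf2. The Tet2 call was lost without 4 h replicate 3 (-0.33, limma adjusted p = 0.0659). Uhrf1 was the only member past 2-fold (12.1%). From 12 h to 24 h, 4 genes changed (57.3%), with 3 higher (22.5%), Uhrf1, Dnmt1 and Dnmt3a, and 1 lower (34.8%), Tet3. Here 2 of them, Uhrf1 and Dnmt1, passed 2-fold (12.2%), and 1.41% and 3.22% of all genes tested had larger absolute changes.

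In vivo activated cells differed from naive cells in 7 of the 8 genes (79.3%): 6 were higher (39.2%), all but Tet3 and Tet1, and 1 was lower (40.1%), Tet3. Only Uhrf1, Dnmt1 and Tet3 passed 2-fold, 3 genes (33.5%). Uhrf1 was 24.8-fold higher (4.63 ± 0.05, limma adjusted p = 2.6e-26), and 1.25% of all genes tested had a larger absolute change. Set directly against the 24 h culture, in vivo activated cells had 7 genes changed (69.8%), with Tet1, Uhrf2 and Tet2 making up the 3 higher (33.6%) and Uhrf1, Dnmt3a, Dnmt3b and Dnmt1 the 4 lower (36.3%). The 1 gene past 2-fold (20.1%) was Tet1, whose difference rests in part on the 24 h library at -5.61: it was 3.30 with it and 1.76 without it. With only the 6 libraries compared in the fit, its limma adjusted p was 0.109. Tet1 also passed the filter only through its naive and in vivo activated libraries.

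Peak GC cells differed from naive cells in all 8 genes (79.7%), with 3 higher (40.5%), Dnmt1, Uhrf1 and Uhrf2, and 5 lower (39.3%), Dnmt3a, Dnmt3b and the 3 TET genes. Of these, 5 were at least 2-fold different (34.7%): Uhrf1 and Dnmt1 above, and Tet1, Tet2 and Dnmt3a below. Tet1 is counted here although it passed the filter only through its naive and in vivo activated libraries. Tet2 was 4.89-fold lower (-2.29 ± 0.14, limma adjusted p = 8.15e-13) and Dnmt3a 3.52-fold lower (-1.82 ± 0.08, limma adjusted p = 2.2e-15).

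Against in vivo activated cells, with which they share the absence of Y-linked RNA, early GC cells had 7 genes changed (69.5%). Tet3, Dnmt1 and Uhrf2 were the 3 higher (33.2%) and Tet2, Dnmt3a, Dnmt3b and Uhrf1 the 4 lower (36.4%), and 4 passed 2-fold (22.8%): Tet2, Dnmt3a, Dnmt3b and Tet3. Tet1 did not pass, at -1.77 ± 0.81 (limma adjusted p = 0.0565), and it passed in 4 of the alternative settings. All its early GC libraries were under 1 CPM, and it passed the filter only through its naive and in vivo activated libraries. These Tet1 values are therefore a description. Peak GC cells had all 8 genes changed (69.2%) in this comparison, the same 3 higher (34.1%) and 5 lower (35.0%), with Tet2, Tet1, Dnmt3a and Dnmt3b the 4 past 2-fold (23.6%). Tet2 was 6.81-fold lower than in in vivo activated cells (-2.77 ± 0.14, limma adjusted p = 5.88e-14) and Dnmt3a 4.19-fold lower (-2.07 ± 0.08, limma adjusted p = 4.6e-16). Larger absolute changes were found in 6.92% and 10.6% of all genes tested. The Tet1 call was lost without in vivo activated replicate 3 (limma adjusted p = 0.065). Tet1 is in the peak GC counts although it passed the filter only through its naive and in vivo activated libraries. The GC comparisons with naive and with in vivo activated cells share their GC libraries.

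**Figure D5:**
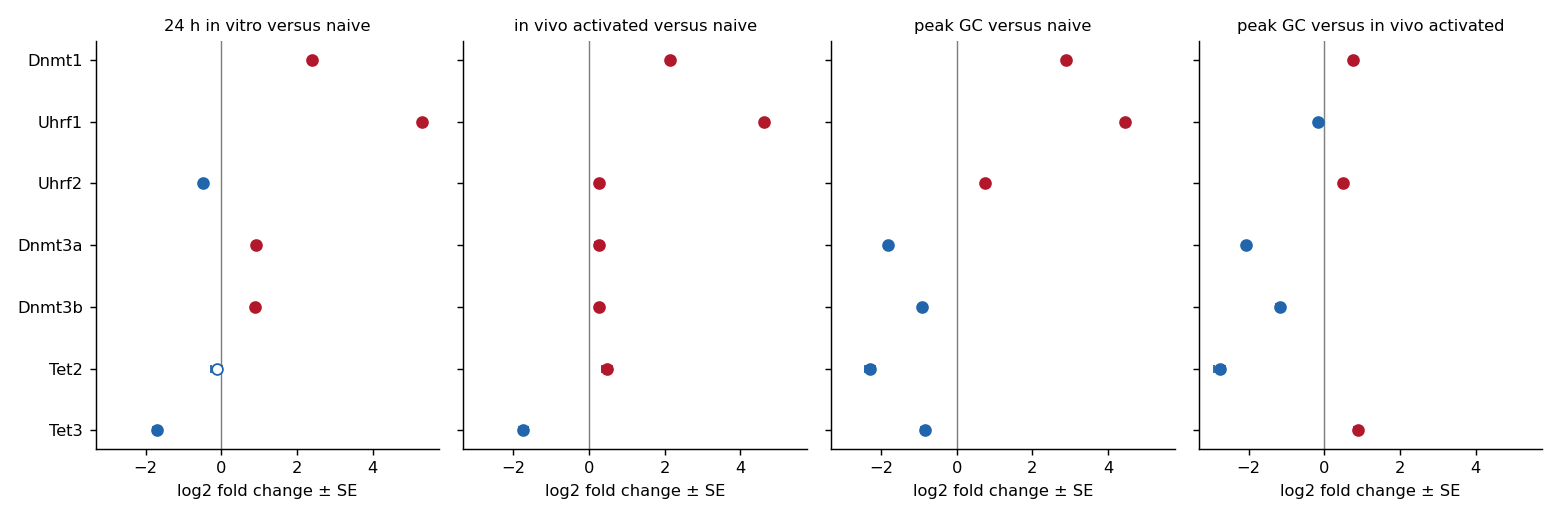
Log2 fold changes with SE (horizontal axes) of 7 of the 8 genes (vertical axis) in 4 comparisons; red is higher and blue lower in the first group, and an open point did not pass an adjusted p of 0.05. Tet1 is left out because of its low level. Dnmt3a, Dnmt3b and Tet2 are right of or near 0 after activation and left of 0 in both peak GC comparisons.

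Between GC stages the 8 genes differed little. Peak and early GC cells differed in 1 gene (13.2%), with 0 higher (5.77%) and 1 lower (7.42%), Dnmt3a, and 0 past 2-fold (3.04%); without peak GC replicate 1, Tet3 was called as well (-0.41, limma adjusted p = 0.00455). Late and peak GC cells differed in 3 genes (32.6%). Dnmt3a was the 1 that was higher (12.0%), by 0.24 ± 0.08 (limma adjusted p = 0.0349), and Dnmt1 and Uhrf1 were the 2 lower (20.6%), by -0.19 ± 0.07 and -0.15 ± 0.05 (limma adjusted p = 0.0329 and 0.0267), with 0 past 2-fold (8.27%). None of these 3 calls held with only the 6 libraries of these groups in the fit (0 genes), where 1099 in place of 3877 of all genes tested were called, or without peak GC replicate 2 or late GC replicate 2 (0 genes each). Without peak GC replicate 3, the Dnmt3a difference was 0.12 (limma adjusted p = 0.237), and Uhrf1 was not called (0.0538). Dnmt1 was not called without peak GC replicate 1 (0.106) or late GC replicate 3 (0.064), nor Dnmt3a without the latter (0.176).

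Late and early GC cells differed in 1 gene (35.1%), Dnmt3a, with 0 higher (13%) and 1 lower (22.1%), at -0.27 ± 0.08 (limma adjusted p = 0.0159), and 0 past 2-fold (7.30%). The call was lost without late GC replicate 1 (-0.20, limma adjusted p = 0.0951), and Tet2 was then called (-0.40, limma adjusted p = 0.0177), as were Dnmt1 and Dnmt3b. The count was 3 without that library or without early GC replicate 3, and 2 without late GC replicate 3. Macrophage and monocyte markers were higher in late GC than in early or peak GC libraries. Neutrophil markers reached higher sums in late GC (71.2 to 1001 CPM), but overlapped early GC (20.3 to 117 CPM) and peak GC (20.2 to 86.2 CPM). The part of both marker lists in these small differences was not tested.

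The genes that read DNA methylation or work with these enzymes were described by lists, by counts and medians without a test of the list. Of 8 readers of DNA methylation, all tested, 1 was higher and 6 were lower in in vivo activated than in naive cells (39.2% and 40.1% of all genes tested), with a median log2 change of -0.68 against -0.02 for all genes tested. Zbtb4, a zinc finger protein that binds methylated CG, fell by 2.67 ± 0.14 (limma adjusted p = 2.53e-13). From in vivo activated to peak GC cells, 7 of the 8 were higher and 0 lower (34.1% and 35.0% of all genes tested), with a median of 1.11 against -0.01. Mbd4, a glycosylase that removes thymine opposite guanine, went from 4.45 ± 0.27 (SD, n = 3) to 7.14 ± 0.20, and Zbtb38 from 4.26 ± 0.16 to 6.52 ± 0.09. Both rose, by 2.70 ± 0.12 and 2.26 ± 0.10 (limma adjusted p = 1.97e-15 and 2.89e-15).

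Of the partners of the DNA methyltransferases, 11 of 12 were tested, and 8 were higher and 2 lower at 24 h than in naive cells (42.2% and 42.5% of all genes tested; median 1.48 against -0.01). The ligase gene Lig1 rose by 3.86 ± 0.05, Cdca7, which recruits the remodeller HELLS, by 4.13 ± 0.06, and the replication clamp gene Pcna by 2.91 ± 0.06 (limma adjusted p = 8.54e-26, 2.87e-24 and 2.3e-21). Cdca7 had risen by 2.83 ± 0.06 already at 4 h. From in vivo activated to peak GC cells, 7 were higher and 3 lower, against the same 34.1% and 35.0% (median 0.20 against -0.01). Usp7, a deubiquitinase that binds DNMT1 and UHRF1, rose by 1.18 ± 0.06 (limma adjusted p = 7.41e-14), and Hells fell by 0.66 ± 0.14 (limma adjusted p = 0.000368).

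Among genes that excise and repair oxidised or deaminated cytosine, 15 of 16 were tested, and 9 were higher and 2 lower in peak GC than in in vivo activated cells (34.1% and 35.0% of all genes tested; median 0.80 against -0.01). Neil1, a glycosylase for oxidised bases, had 3.60 ± 0.14 (SD, n = 3) in in vivo activated and 8.83 ± 0.08 in peak GC cells, a rise of 5.23 ± 0.07 (limma adjusted p = 3.23e-24). Neil1 had moved the other way after activation, at -2.99 ± 0.07 at 24 h and -2.08 ± 0.07 in vivo relative to naive cells. Ung, which removes uracil from DNA, rose by 3.89 ± 0.08 at 24 h (limma adjusted p = 7.79e-22). Of the TET partners, 12 of 14 were tested, and 6 were higher and 4 lower in peak GC than in in vivo activated cells. The shares of all genes tested were 34.1% and 35.0%, and the count of lower partners is near its share. The median of the partners was 0.28 against -0.01. The corepressor gene Sin3a rose by 0.65 ± 0.06 (limma adjusted p = 1.41e-09), and Vprbp, a substrate receptor of the CUL4 ligase, fell by 1.09 ± 0.06 (limma adjusted p = 1.13e-13).

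The S-adenosylmethionine cycle supplies the methyl group. Of 12 listed genes 10 were tested, and 8 were higher and 0 lower at 4 h than in naive cells (38.9% and 39.1% of all genes tested; median 1.16 against -0.01). Ahcy, which clears the inhibitory product S-adenosylhomocysteine, rose by 1.27 ± 0.07 at 4 h and by 2.22 ± 0.07 at 24 h (limma adjusted p = 1.31e-13 and 1.93e-18). From in vivo activated to peak GC cells 0 were higher and 5 lower (34.1% and 35.0% of all genes tested; median -0.38 against -0.01), with Mtap, of the methionine salvage pathway, down by -2.26 ± 0.06 (limma adjusted p = 6.77e-19). Over the same step, the lists of 22 DNA replication and 12 mitosis genes had medians of 0.11 and -0.08, with 10 higher and 3 lower, and 4 higher and 1 lower. From naive to 24 h, 21 of 22 replication and 12 of 12 mitosis genes were higher (42.2% of all genes tested), with medians of 3.44 and 3.80. Pcna and Lig1 are in 2 of these lists, as is Mbd4.

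By Pearson correlation of the 8 group means, over 8646 genes whose means span at least 1 log2, the genes most like Uhrf1 included Mcm7 (r = 0.998) and Chtf18 (r = 0.997), and those most like Dnmt1 were Kif24 (0.998), E2f1 and Asf1b (0.997 each). Dnmt3b was most like Dcun1d2 (0.997), Qsox2 and Nfkb1 (0.994 each), and Dnmt3a was most like Klhl25 (0.993), Sec23b and Gfod1 (0.992 each). The closest to Tet2 was Arhgap24 (0.992), then Marcks and Rilpl1, to Tet3 Abhd16a (0.991), then Pou6f1 and Helz2, to Uhrf2 Tmf1 (0.994), then Egfl6 and C2cd2l, and to Tet1 Tmem71 (0.988), then Pecam1 and H2-Q1. Lowest were Spry1 for Dnmt1 (-0.992), Tmem87b for Uhrf1 (-0.993), Ccdc175 for Dnmt3a (-0.995), Ngly1 for Dnmt3b (-0.995), Rapgef3 for Tet2 (-0.997), Mphosph6 for Tet3 (-0.985), Bmi1 for Uhrf2 (-0.992) and Cebpg for Tet1 (-0.951). With 8 group means such values are common: 239 genes exceeded 0.95 with Dnmt1, 174 with Uhrf1 and 70 with Tet2. They are descriptions of shared shape over the same libraries. For Tet1, 18 of 24 libraries were under 1 CPM and 1 of the 24 h libraries lay at -5.61, which limits its correlations.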

How the data were processed

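The authors deposited one log2 value per gene and library; the tools named in the submitters' processing notes are limma, featureCounts, STAR 2.6.0c, Subread 1.6.2, cutadapt 1.8.3 and FastQC 0.11.5, and the build is mm10; their order and settings are not given in the sources used here. The deposited log2 values behave like log2 CPM (linear sums of 990678 to 1008194 per library), share nearly the same distribution, and have equal means for each replicate number (largest difference 0.000875), so any shift between replicate numbers was removed before deposit. The read depth is unknown, so no detection limit could be set.

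Genes with at least 1 CPM (log2 value of 0) in at least 3 of 24 libraries were tested (11885) with limma 3.58.1 in R 4.3.3, with a variance trend, robust moderation, 1 mean per group and 16 residual degrees of freedom. P-values are two-sided with Benjamini-Hochberg adjustment over all genes tested in a comparison. The fit was tested on simulated data first. Within-library differences were tested by exact two-sided permutation. Python 3.11.15, numpy 2.4.6, pandas 2.3.3, scipy 1.17.1 and matplotlib 3.10.9 were used for the rest. The members and lists were chosen with earlier results of these data known. Besides the 8 members, each list is given by its counts and median, naming up to 3 members per direction by smallest p, and for each member the 3 genes with the most similar and the 1 with the least similar group means. Some genes that this rule names are not reported here. The labels do not say that a replicate number marks a shared animal or day, so the fit has no replicate block. Because the means per replicate number were equal, the 16 residual degrees of freedom are too many. A fit with the block has 14, so the p-values printed here can be somewhat too small. Alternatives covered the filter, pseudocount, scaling, moderation, replicate block, libraries in the fit, single libraries left out and the threshold.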

Additional observations from a re-analysis of the deposited data

Results flagged for a closer look

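For 7 of the 8 genes, the change from naive cells differed between in vivo activation and 24 h of culture, by limma's direct test of the 2 groups, against 69.8% of all genes tested, so the count is near the background. The in vivo minus culture difference in log2 was -0.26 for Dnmt1 (adjusted p = 0.00154), -0.67 for Uhrf1 (6.1e-11), -0.66 for Dnmt3a (3.03e-07) and -0.62 for Dnmt3b (3.39e-06), each of which rose less in vivo. It was 0.75 for Uhrf2 (8.49e-10) and 0.59 for Tet2 (0.00077). Uhrf2 was above naive in vivo (0.27) and below it at 24 h (-0.48), and Tet2 was above naive in vivo (0.48) and at -0.12 at 24 h, which did not pass. For Tet1 it was 3.30 (0.00109), with 1 of the 3 culture libraries at -5.61, and the gene passed the filter only through its naive and in vivo activated libraries. Because both changes use the same naive libraries, the naive level cancels from each difference, and the sex of the mice cannot be told apart from the setting here.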

How the results depend on the processing

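Of 29 member changes of at least 2-fold, 426 of 429 values under alternative settings kept direction and call, 3 lost the call, all for Tet1, and 0 reversed. The 29 include changes of Tet1, which passed the filter only through its naive and in vivo activated libraries. The filter at 10 CPM removed Tet1 from testing, so each of its changes among the 29 has 14 alternative values in place of 15. The counts of changed members moved by over 1.5 times only between GC stages. Late against peak GC had 3 genes, but 1 without the variance trend, 1 with the replicate block, 0 with only the compared libraries, 0 at an adjusted p under 0.01, and 0 to 3 when single libraries were left out. Late against early GC had 1, but 0 with only the compared libraries and 0 at 0.01, and 1 to 3 with single libraries left out. Peak against early GC had 1, and 1 to 2 with single libraries left out. Whether equal replicate numbers pair the libraries could not be read from the data: the equal means per number force deviations of same-numbered libraries apart (median correlation -0.13, lowest -0.37, highest 0.11). The replicate block changed no other member call than Dnmt1 (0.0512) and Dnmt3a (0.0537) in late against peak GC. Over all genes tested, peak against early GC had 1568 called, and 577 with only the compared libraries, 1034 without early GC replicate 2 and 818 at 0.01. Late against peak GC had 3877, and 2523 at a filter of 10 CPM, 1099 with only the compared libraries and 2272 at 0.01. Late against early GC had 4169, and 2285 and 2612 under the last 2 settings. The changes that turned sign did so with 1 library left out, and none was called; their lowest and highest values were as follows. For Uhrf1 they were -0.0063 and 0.068 at 4 h against naive, and -0.00083 and 0.082 in peak against early GC, and for Dnmt1 -0.0135 and 0.124 in the latter. For Tet2 they were -0.18 and 0.0017 at 24 h against naive, and -0.288 and 0.061 in late against peak GC. For Tet1 they were -0.235 and 0.221 at 12 h against 4 h, and -0.724 and 0.1002 in late against early GC. From 12 h to 24 h they were -0.076 and 0.0078 for Dnmt3b and -0.0215 and 0.036 for Uhrf2. For Tet3 they were -0.075 and 0.0315 in vivo against 24 h, and -0.083 and 0.217 in late against peak GC, where Dnmt3b had -0.204 and 0.0115 and Uhrf2 -0.073 and 0.025. The cause of these shifts was not tested beyond fewer libraries or genes in the fit. The unknown depth limits statements on Tet1 most.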

Other observations

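Tet2 had 51 CG pairs in the 250 bases before its RefSeq start, more than 99.9% of the windows of 32851 starts, whose median was 6. Dnmt3a had 38 and 40 at its first 2 starts and 15 at the third, Uhrf1 10 and 30, Uhrf2 23, Dnmt3b 21, Tet3 17 and Tet1 15. Dnmt1 had 2, 7 and 26 at its 3 starts. No methylation was measured in these libraries.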
